A study of Mus musculus with 12 samples.

Results

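The glycosyltransferases of the Golgi apparatus were taken as all genes on the array whose name starts with B3galt, B3gnt, B4galt, Galnt, St3gal, St6gal, St8sia, Fut or Mgat. This gave 76 gene names of the 27373 on the array, measured by 143 of 41174 probes. The Galnt names were the most numerous with 18 names and 33 probes. There were 9 B3gnt, 9 Fut, 8 Mgat, 8 St6gal, 7 B4galt, 6 St3gal, 6 St8sia and 5 B3galt names. The St6gal prefix also takes in the St6galnac genes, and Fut4-ps1 is a pseudogene by its name.

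The measurements came from whole back skin of male C57BL/6J mice that were 8 weeks old when bought and were shaved on the back. From the next day the mice received 200 µL daily of 3% MXD, of 10% N-CE or of VC. MXD is minoxidil, a drug for hair loss, and N-CE is a cell extract of the cactus Notocactus ottonis. VC is the vehicle of propylene glycol, ethanol and water without either agent. At 1W, 2W and 3W after the start the RNA from 6 mice of each group was combined into 1 pool. A treated pool and the VC pool sampled with it were hybridized on 2 arrays as a dye swap of Cy3 and Cy5, which makes 6 comparisons on 12 arrays. Each group is thus 1 pool without biological replicate, and every SD of a fold given here is over the 2 arrays of a dye swap. All 4 arrays of a sampling time lie on 1 slide and use the same VC pool, and slide and week cannot be told apart. As the tissue is whole skin, fewer cells of a type and less RNA per cell cannot be told apart either.

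Glycosyltransferases move a sugar from a nucleotide donor onto a growing glycan of a protein or lipid in the Golgi. The Galnt enzymes start mucin-type O-glycans by putting N-acetylgalactosamine on serine or threonine. The B3galt, B4galt and B3gnt enzymes lengthen chains with galactose and N-acetylglucosamine, and the Mgat enzymes begin the branches of N-glycans. Chains are then capped with sialic acid by the St3gal, St6gal and St8sia enzymes or carry fucose from the Fut enzymes. In skin these glycans are found on receptors and adhesion molecules of keratinocytes, on gangliosides and on ligands of the selectins that guide leukocytes.

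Values are log2 ratios of treated over VC, so that 1 is a doubling and -1 a halving of the signal. A probe was called up or down where the error-model P of the scanner software was under 0.01 on both arrays, both pointed the same way and the mean fold was above 1.5 or below 0.75. This P describes the spot and not the mice, so a call is no test across animals. A probe counts as above background in a group where the software found it well above background on at least 1 of its arrays. On this criterion 80 member probes of 57 names were above background in both groups in all 6 comparisons, and 33 probes were above background in neither group of any comparison. B3gnt7, B4galt5, Fut9, Galntl6, Mgat5b and St6galnac1 had no probe above background on any array. Across the 12 arrays, between 57.0% and 69.6% of the transcript spots were well above background in a channel, and no spot was saturated.

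The results turn mainly on B3galt5, Galnt14, St8sia6, B3galt2 and Galnt15, so the sequences that measured some of them and that lie at their starts are shown. The array probes are 60 bases long, of which the first 30 are given from the array files. They lie on mm9 at chr16:96541339-96541398 for B3galt5, chr17:73843114-73843173 for Galnt14 and chr14:32875310-32875369 for Galnt15, and their place within exons was not analysed here.
B3galt5 probe: cactgaatggagtttggaattgtcatttgc
Galnt14 probe: cttgtcactgtgccaggacgacatggagag
Galnt15 probe: actgctgtgcagaaagggccacggatggaa

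Promoters were taken from RefSeq on GRCm38.p6 as 250 bases before to 50 bases after a start, and 55 of the 76 names had at least 1 of them. Capitals mark matches on either strand to letters that were searched, namely the TCF/LEF core CTTTGA, the M-box CATGTG of melanocyte genes, the muscle E-box CAGCTG, the GC box GGGCGG and the TATA box TATAAA. Galnt14 lies at chr17:73710402-73710701 on the minus strand, St8sia6 at chr2:13793471-13793770 on the minus strand, B3galt5 at chr16:96235551-96235850 on the plus strand as 1 of 3 entries, B3galt2 at chr1:143640447-143640746 on the plus strand and Galnt15 at chr14:32028853-32029152 on the plus strand. The first 3 genes were called up and the other two down in MXD_2W.
Galnt14 promoter: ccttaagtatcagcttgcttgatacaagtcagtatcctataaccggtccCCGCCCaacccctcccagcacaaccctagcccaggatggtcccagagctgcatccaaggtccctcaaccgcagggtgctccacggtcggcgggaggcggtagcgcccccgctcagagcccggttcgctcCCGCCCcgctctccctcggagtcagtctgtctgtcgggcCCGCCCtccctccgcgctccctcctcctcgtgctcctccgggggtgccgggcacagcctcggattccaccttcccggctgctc
St8sia6 promoter: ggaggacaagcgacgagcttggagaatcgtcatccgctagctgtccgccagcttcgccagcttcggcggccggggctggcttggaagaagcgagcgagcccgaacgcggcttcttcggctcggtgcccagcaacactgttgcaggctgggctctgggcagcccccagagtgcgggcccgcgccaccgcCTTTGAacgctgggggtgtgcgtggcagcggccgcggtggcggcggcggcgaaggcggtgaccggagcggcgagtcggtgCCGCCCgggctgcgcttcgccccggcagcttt
B3galt5 promoter: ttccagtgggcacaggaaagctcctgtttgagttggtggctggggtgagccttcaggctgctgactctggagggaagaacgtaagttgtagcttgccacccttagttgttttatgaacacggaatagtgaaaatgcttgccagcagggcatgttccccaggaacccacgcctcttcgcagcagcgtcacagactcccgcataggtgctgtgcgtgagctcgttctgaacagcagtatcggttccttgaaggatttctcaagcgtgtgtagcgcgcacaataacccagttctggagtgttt
B3galt2 promoter: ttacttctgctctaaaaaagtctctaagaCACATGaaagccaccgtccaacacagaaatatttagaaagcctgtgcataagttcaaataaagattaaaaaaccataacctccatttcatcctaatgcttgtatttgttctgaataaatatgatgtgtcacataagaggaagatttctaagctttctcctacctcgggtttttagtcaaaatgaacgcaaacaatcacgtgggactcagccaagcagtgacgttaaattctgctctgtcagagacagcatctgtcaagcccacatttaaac
Galnt15 promoter: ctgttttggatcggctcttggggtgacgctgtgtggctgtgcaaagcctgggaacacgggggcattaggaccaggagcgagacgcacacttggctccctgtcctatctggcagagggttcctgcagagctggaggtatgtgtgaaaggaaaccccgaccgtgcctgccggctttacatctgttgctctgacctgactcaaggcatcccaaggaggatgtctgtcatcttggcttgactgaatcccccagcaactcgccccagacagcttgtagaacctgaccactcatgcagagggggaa
The GC box was in 56.6% of the 76 member promoters and in 35.7% of all 32851 promoters, and median GC content was 61.8% against 52.7%. The TATA box was in 2.63% of member promoters and 13.6% of all. The TCF/LEF core was in 14.5% against 16.0%, the M-box in 7.89% against 14.2% and the muscle E-box in 15.8% against 16.3%. Among promoters of the genes called up in MXD_2W the M-box had 0 matches in 15, and among those called down 3 in 16. These matches describe the letters in the window and no binding was measured.

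The glycosyltransferases moved most in MXD_2W, the comparison of MXD with VC at 2W, where 12 member probes of 9 names were called up and 18 probes of 13 names down. When the raw signals were corrected with normexp and loess instead, a method that compresses dim signals, 6 were called up and 18 down. Of all probes 2.51% were called up and 5.39% down by that method. It shrank 13 of the 30 called values by over 1.5 times. By the deposited ratios the share of members called was 8.39% up and 12.6% down, beside 4.04% up and 5.82% down among all probes tested. Counted as gene names by the brightest probe, 22 of the 76 were called in either direction, against 11.1% of all names. Since 33 of the member probes were never above background, the shares were also taken over the 95 members above background in both groups. They were then 12.6% up and 18.9% down, against 6.1% and 8.91% of the 26589 such probes on the array. No test was made of these differences in share. The median log2 ratio of the members was -0.03 and that of all probes 0.05, so the members spread to both sides rather than to 1 side. Their middle 50% ran from -0.42 to 0.42, and that of all probes from -0.29 to 0.32.

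**Figure D1:**
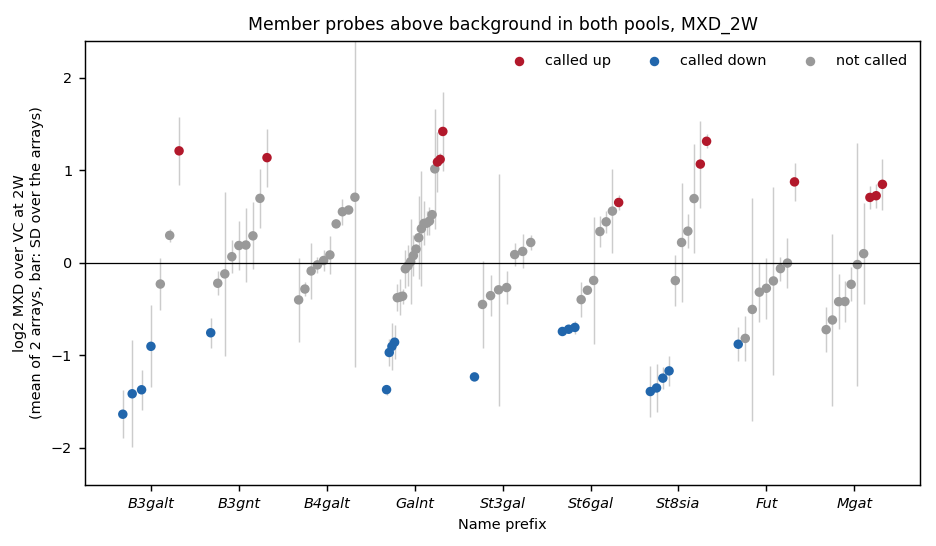
Each point is 1 of the 95 member probes above background in both pools in MXD_2W, placed by its name prefix, with the mean log2 ratio of MXD over VC of the 2 arrays on the vertical axis and the SD over these arrays as a bar. The B3galt, Galnt and St8sia genes reach from below -1.3 to above 1.2 with calls on both sides, while no B4galt probe was called.

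In the other 5 comparisons few members were called. In MXD_1W there was 1 probe up and 2 down, where 0.685% and 0.765% of all probes and 1.7% of all names were called. In MXD_3W there was 1 up and 0 down, beside 0.144% and 0.161% of all probes and 0.37% of names. For N-CE, N-CE_1W had 1 up and 3 down, beside 0.292% and 1.49% of probes and 2.22% of names. N-CE_2W had 0 in both directions, beside 0.0682% and 0.0511% of probes and 0.132% of names, and N-CE_3W had 1 up and 1 down, beside 0.151% and 0.139% of probes and 0.29% of names. Every member called in one of these comparisons was among the 30 probes called in MXD_2W. B3galt5, Galnt14 and St8sia6 were called up in MXD_2W but down in N-CE_1W, and St6galnac5 the reverse. At least 2 calls were found for 7 of 143 members, beside 2.42% of all 40820 probes. Of all probes called up in MXD_2W and above background in both groups of both comparisons, 467 of 1418 were called down in N-CE_1W.

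**Figure D2:**
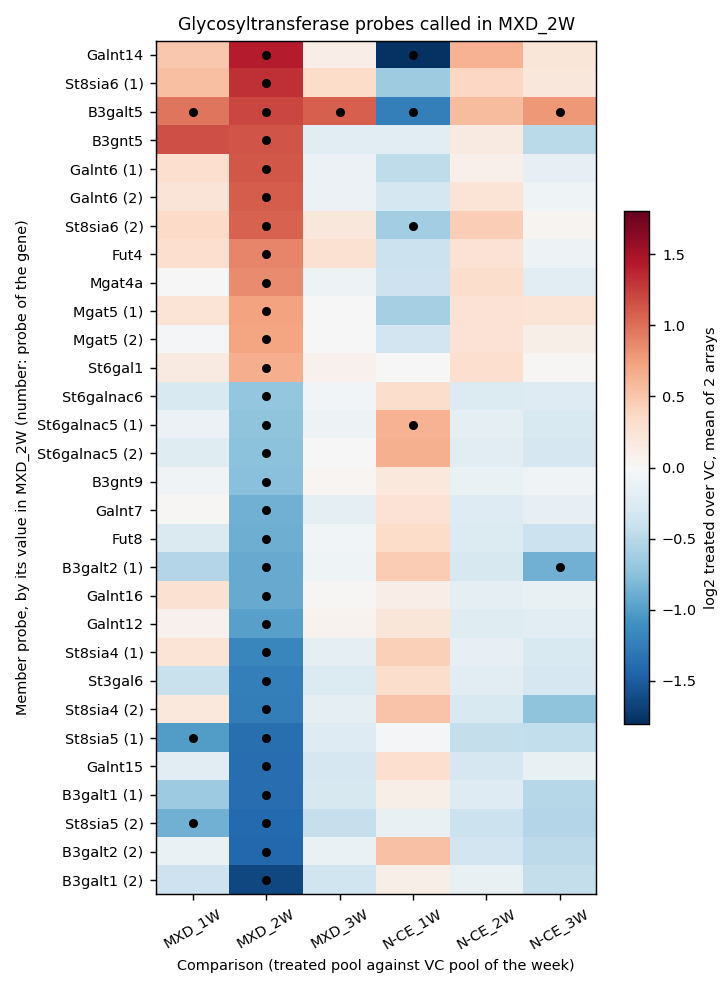
Rows are the 30 member probes called in MXD_2W in the order of their value there, columns are the 6 comparisons, colour is the mean log2 ratio of treated over VC of 2 arrays and a dot marks a call. B3galt5 carries a dot in 5 columns, and the column of N-CE_1W shows mostly the opposite colour to that of MXD_2W.

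Among the enzymes that start O-glycans, Galnt14 and Galnt6 were called up and Galnt15, Galnt16, Galnt12 and Galnt7 down in MXD_2W. The log2 ratio of Galnt14 was 1.11 on the array with MXD in Cy5 and 1.72 on the other. Its mean of 1.42 ± 0.43 (SD, n = 2 arrays) was the highest of all members above background. A second Galnt14 probe was not above background in both groups. Over the 3 weeks of MXD that probe had a mean of 0.15 ± 0.08 (SE), against 0.67 ± 0.33 (SE) for the first. Galnt6 gave 1.16 and 1.07 by 1 probe and 1.31 and 0.86 by the other, with means of 1.12 ± 0.07 and 1.09 ± 0.32. Both of its probes were thus above 0 on both arrays, as a call requires.

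Galnt15 gave -1.41 and -1.33, a mean of -1.37 ± 0.06, from processed signals of 1980 and 1610 in MXD against 5280 and 4070 in VC. Galnt12 had a mean of -0.97 ± 0.15, Galnt16 of -0.91 ± 0.26 and Galnt7 of -0.86 ± 0.18, while a second Galnt7 probe had -0.36 without a call. The other Galnt probes above background were not called, among them Galnt18, whose 2 arrays gave 0.56 and 1.47. Its mean of 1.01 ± 0.64 met the fold but not the P criterion on both arrays.

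The enzymes that add galactose split in the same comparison. B3galt5, which builds type 1 chains, gave 0.95 and 1.47 in MXD_2W with a mean of 1.21 ± 0.37. B3galt1 and B3galt2, which catalyse the same kind of linkage, were called down by 2 probes each. The B3galt1 probes gave -1.82 and -1.46 with a mean of -1.64 ± 0.26 and -1.53 and -1.22 with a mean of -1.38 ± 0.22. The first of these means was the lowest of all members above background, but with normexp and loess the 2 probes had -0.64 and -0.43, while Galnt15 had -1.35. The B3galt2 probes had means of -1.42 ± 0.58 and -0.91 ± 0.44, and all 4 of their single-array values were at or below -0.59. By contrast the 10 B4galt probes above background were all uncalled, with means between -0.40 and 0.71. The highest of these, a B4galt3 probe, gave 2.01 and -0.59 on its 2 arrays and is no estimate of a change. Among the B4galt probes above background in both groups of all 6 comparisons, B4galt6 had the widest range. It had 0.55 in MXD_2W and -0.35 in N-CE_3W and was called in neither.

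Of the B3gnt enzymes, which add N-acetylglucosamine to galactose, B3gnt5 was called up and B3gnt9 down. B3gnt5, the enzyme that begins the lacto-series glycolipids, gave 0.91 and 1.36 with a mean of 1.14 ± 0.32. A second B3gnt5 probe was not above background in both groups and had a mean of 0.29 ± 0.25 (SE) over the 3 weeks of MXD. B3gnt9 gave -0.64 and -0.87 with a mean of -0.76 ± 0.16. Among the B3gnt probes above background in both groups of all 6 comparisons, B3gnt8 had the widest range, with 0.70 ± 0.32 in MXD_2W and -0.40 ± 0.28 in N-CE_1W, and was called in neither.

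Of the branching enzymes of N-glycans, 3 probes of Mgat5 and Mgat4a were called up. Mgat5, which starts the branch that carries long lactosamine chains, gave 0.63 and 0.82 by 1 probe and 0.80 and 0.62 by another, with means of 0.72 ± 0.13 and 0.71 ± 0.13. Mgat4a, which starts another antenna, had a mean of 0.85 ± 0.28. With normexp and loess none of these calls was kept, with 0.49 and 0.56 for Mgat5 and 0.57 for Mgat4a. The 10 Mgat probes above background had a median of -0.13 and 4 of them were above 0.

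Among the sialyltransferases calls fell on both sides. St8sia6, which links sialic acid to sialic acid on O-glycans, gave 1.37 and 1.26 by 1 probe with a mean of 1.31 ± 0.08 and 0.73 and 1.40 by another with a mean of 1.07 ± 0.47. St8sia5, which makes gangliosides with several sialic acids, had means of -1.39 ± 0.28 and -1.36 ± 0.26 by its 2 probes. St8sia4, a polysialyltransferase that acts on the neural cell adhesion molecule, had -1.25 ± 0.12 and -1.17 ± 0.16. The family was therefore called up for 1 gene and down for 2, each by 2 probes in the same direction.

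St3gal6 was the St3gal gene called, with -1.21 and -1.26 and a mean of -1.24 ± 0.03. Its enzyme takes part in making selectin ligands. St6gal1, the main enzyme for terminal sialic acid on N-glycans, was called up by 1 of its 2 probes with 0.71 and 0.59 and a mean of 0.65 ± 0.08. St6galnac5 and St6galnac6, which act on gangliosides, were called down. The St6galnac5 probes had -0.74 ± 0.04 and -0.72 ± 0.03 and the called St6galnac6 probe -0.70 ± 0.07. These 2-array SDs were among the smallest of the members called. A second St6galnac6 probe had -0.40 without a call, and the remaining probe of this gene was not above background in both groups.

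Of the fucosyltransferases, Fut4, which makes Lewis x, was called up with 1.02 and 0.73 and a mean of 0.87 ± 0.20. Fut8, which adds the core fucose of N-glycans, was called down with -0.75 and -1.01 and a mean of -0.88 ± 0.18. The remaining Fut probes above background, 7 of 9, were not called.

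B3galt5 was the member called most often. Its processed signal was 119 and 128 in MXD against 60.7 and 65.4 in VC at 1W, which gave log2 ratios of 0.97 and 0.96 and a mean of 0.97 ± 0.01. In MXD_3W the ratios were 1.00 and 1.16 with a mean of 1.08 ± 0.11, so that all 6 MXD arrays lay between 0.95 and 1.47. In N-CE_1W the ratios were -1.12 and -1.35. The signal was then 25.6 and 26.8 in N-CE, not well above background, against 55.5 and 68.4 in VC. The size of the ratio is therefore not measured. By levels after normexp, which compresses dim signals, the gene was 1.23-fold lower in N-CE than in VC.

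In N-CE_3W B3galt5 was called up with 0.71 and 0.85 and a mean of 0.78 ± 0.10. In N-CE_2W the arrays gave 0.11 and 1.02, a mean of 0.56 ± 0.64, without a call. The gene was thus called in 5 of 6 comparisons, and 9 of the 40820 probes tested in all of them, or 0.022%, were called in at least 5. With normexp and loess the calls of MXD_1W, N-CE_1W and N-CE_3W were lost, with 0.50, -0.30 and 0.36, and those of MXD_2W and MXD_3W were kept, with 0.66 and 0.60. No other member was called in more than 2. It was measured by 1 probe only.

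**Figure D3:**
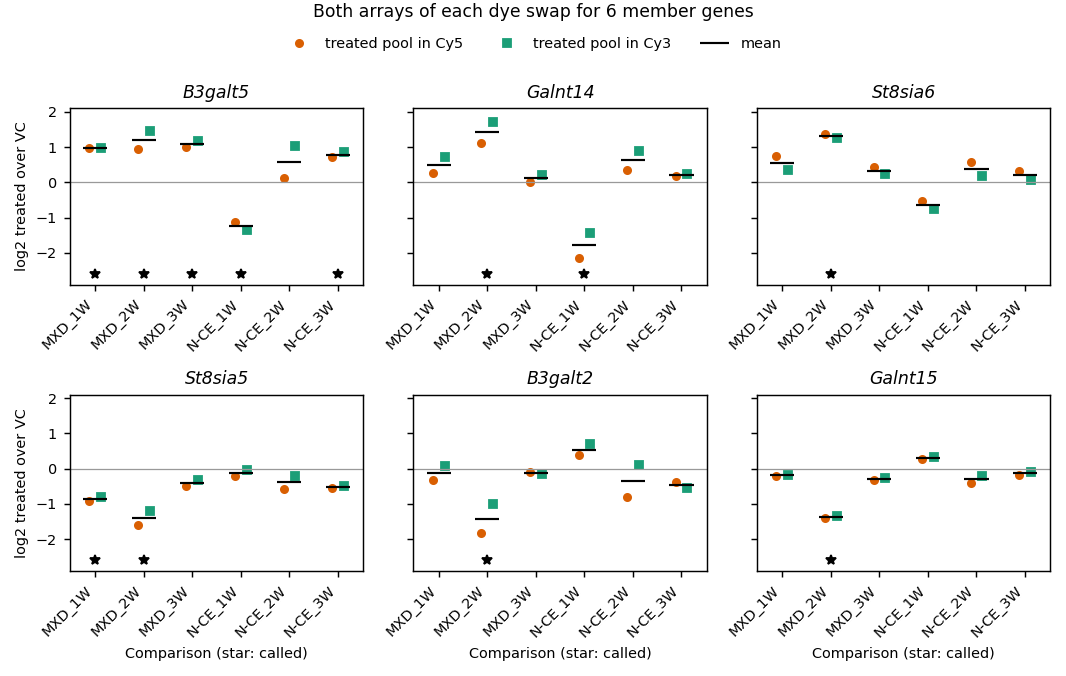
For 6 member genes, each panel gives the log2 ratio of treated over VC on both arrays of each of the 6 comparisons, with the treated pool in Cy5 as a circle and in Cy3 as a square, their mean as a line and a star under each call. Within its own panel B3galt5 has the widest gap between arrays in N-CE_2W, and Galnt14 in N-CE_1W. The B3galt2 arrays also differ at 2W, with a pooled SD of 0.62 over the MXD and N-CE dye swaps.

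The level of B3galt5 in each pool was followed on the scale of log2 normalized intensity after normexp background correction, which compresses dim signals. In VC it was 6.77 ± 0.05, 6.97 ± 0.19 and 6.97 ± 0.09 at 1W, 2W and 3W (SD over 4 arrays). In MXD it was 7.23, 7.68 and 7.64 and in N-CE 6.52, 7.18 and 7.26 over 2 arrays each. The order was N-CE, VC and MXD at 1W and VC, N-CE and MXD at 2W and 3W, with N-CE inside 2 SD of VC at 2W.

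Galnt14 had 7.08 ± 0.09, 7.56 ± 0.25 and 8.09 ± 0.41 in VC at the 3 times. Its 4 VC arrays at 3W ran from 7.73 to 8.59, although they hold the same RNA. St8sia5 went the other way in VC, with 10.24 ± 0.09, 9.86 ± 0.22 and 9.52 ± 0.14. Its MXD pool was lowest at 2W with 8.69 and its N-CE pool at 3W with 8.95 (n = 2 arrays each). As slide and week coincide, these steps between weeks cannot be given to time alone.

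**Figure D4:**
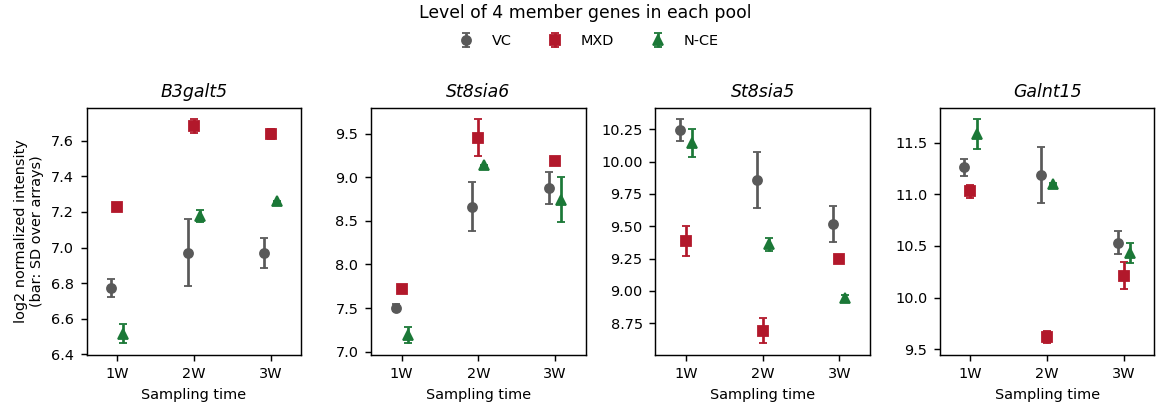
Points are the level of 4 member genes in the VC, MXD and N-CE pools at 1W, 2W and 3W as log2 normalized intensity, with bars for the SD over 4 arrays for VC and 2 for the others. MXD lies above VC for B3galt5 at all 3 times and below VC for Galnt15 at 2W, where the MXD level was 9.62 and the VC level 11.19.

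The other members called outside MXD_2W were few. St8sia5 was called down in MXD_1W by both probes, with -1.04 and -0.96 by 1 probe, an SD of 0.06, and -0.91 and -0.81 by the other, a mean of -0.86 ± 0.08. In N-CE_1W, St6galnac5 was called up with 0.61 and 0.63 and a mean of 0.62 ± 0.01, and its second probe had 0.64 ± 0.22 without a call. St8sia6 was called down there with -0.64 and -0.61, a mean of -0.62 ± 0.02, and its other probe had -0.64 ± 0.16.

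Galnt14 was also called down in N-CE_1W, with -2.13 and -1.42 and a mean of -1.78 ± 0.50, but the N-CE signal was above background on 1 of 2 arrays. With normexp and loess the value was -0.53. In N-CE_3W 1 B3galt2 probe was called down with -0.76 and -0.98 and a mean of -0.87 ± 0.15, while the other had -0.46 ± 0.12. In N-CE_2W, where nothing was called, the ends of the range were a Galnt7 probe with -0.74 ± 0.14, a St3gal2 probe with -0.57 ± 0.49, Galnt18 with 0.60 ± 0.10 and Galnt14 with 0.62 ± 0.37. The lowest members of MXD_1W and MXD_3W that were not called were a St3gal3 probe with -1.03 ± 0.37 and a Fut2 probe with -0.81 ± 0.10, both near background. In MXD_3W a second St3gal3 probe had -0.54 ± 0.08, and the highest after B3galt5 was St8sia6 with 0.34 ± 0.15. In N-CE_3W a dim St8sia2 probe had 0.74 ± 0.31 and 1 St8sia4 probe -0.73 ± 0.01, neither called.

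The members called in MXD_2W were followed into comparisons that share no pool with it. In N-CE_1W, 9 of the 10 probes called up in MXD_2W and measured in both groups were below 0, all 9 on both arrays, and 16 of the 18 called down were above 0. Of all probes called up in MXD_2W 92.5% were below 0 in N-CE_1W, and of all called down 86.3% were above 0, so the members moved as the array as a whole did. St6gal1 with 0.01 was the exception among those called up, and the St8sia5 probes with -0.13 and -0.03 among those called down. B3galt5 and B3gnt5 do not enter this count since they were not above background in the N-CE pool at 1W.

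In N-CE_3W all 18 probes called down in MXD_2W were below 0, 16 of them on both arrays, beside 87.9% of all such probes. Of the 12 called up 7 were above 0, beside 74.6%. In MXD_1W 9 of 11 called up were above 0 and 13 of 18 called down below 0, beside 83.9% and 69.2% of all. In MXD_3W these counts were 8 of 12 and 14 of 18, beside 69.0% and 77.7%.

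**Figure D5:**
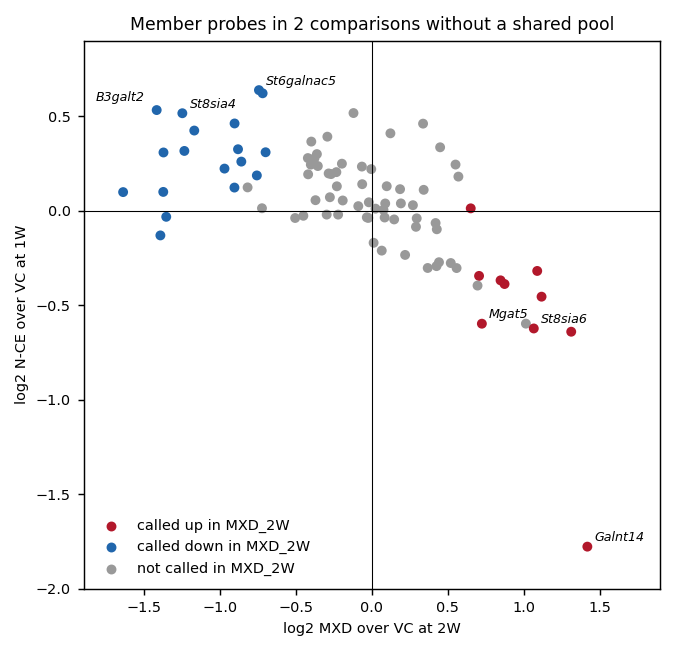
Each of 87 points is a member probe above background in both groups of both comparisons, with log2 MXD over VC at 2W on the horizontal and log2 N-CE over VC at 1W on the vertical axis, coloured by its call in MXD_2W. Galnt14 is the lowest point with -1.78, all red points but St6gal1 lie below 0, and 16 of the 18 blue points lie above 0 on the vertical axis. B3galt5 is not plotted, since it was not well above background in N-CE at 1W on either array.

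Within a week MXD and N-CE share the VC pool, so its RNA cancels in the difference of their log2 ratios. Its separate readings on the MXD and N-CE arrays still enter. These readings differed (MXD minus N-CE arrays) by -0.44 for Galnt15 at 2W and -0.68 for Galnt14 at 3W. At 1W B3galt5 was not well above background in N-CE, so the size of its difference is not measured. By levels after normexp MXD was 1.64-fold above N-CE. Galnt14 had 2.26 ± 0.42 (pooled SD of the 2 dye swaps), with N-CE above background on 1 of 2 arrays. Its levels after normexp were closer, with 7.415 in MXD and 6.538 in N-CE. St8sia6 had 1.19 ± 0.22 and 0.97 ± 0.10 by its 2 probes and St8sia5 -0.97 ± 0.14 and -0.73 ± 0.10. At 2W the B3galt1 probes had -1.51 ± 0.19 and -1.14 ± 0.40, Galnt15 -1.07 ± 0.10 and St8sia4 -1.03 ± 0.21 and -0.97 ± 0.23. By levels after normexp Galnt15 had 9.615 in MXD and 11.097 in N-CE at 2W. At 3W the differences were 0.30 ± 0.11 for B3galt5, -0.10 ± 0.11 for Galnt14 and -0.17 ± 0.04 for Galnt15. By levels after normexp Galnt14 had 7.83 in MXD and 8.63 in N-CE at 3W, so its small difference was not found on that scale. These are values of 1 pool each and were not tested within a week.

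Across weeks a test was possible with the 3 weekly values standing in for replicates. By the moderated test of limma, adjusted after Benjamini-Hochberg over 40820 probes, 0 of 143 members passed for MXD, for N-CE and for their difference. The lowest adjusted p of a member was 0.628, 1 and 0.75. Of all 40820 probes 0 passed in these fits as well, and the lowest adjusted p of any probe was the same. The fit therefore does not set the members apart from the rest of the array. Unadjusted p-values under 0.05 were found for 17, 5 and 8 members, and for 3067, 1486 and 2021 of all probes. B3galt5 had the lowest unadjusted limma p of the members for MXD, 0.000746, with a mean over the weeks of 1.09 ± 0.07 (SE) and all 3 weeks above 0. Its adjusted p was 0.628. For N-CE its mean was 0.04 ± 0.55 (SE), with 2 weeks above 0, which takes in the 1W ratio whose N-CE signal was not above background.

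The spread between arrays was read from VC, since each VC pool was hybridized on 4 arrays. The VC channel of the MXD arrays minus that of the N-CE arrays differed among members by a median size of 0.07, 0.15 and 0.14 on the log2 scale at the 3 times. The largest difference was 0.49, 0.83 and 1.30. For B3galt5 the differences were -0.09, 0.10 and 0.14 and for Galnt14 0.03, -0.38 and -0.68. The values of the 2 arrays of a dye swap correlated across the members above background with r = 0.60, 0.67 and 0.44 in the MXD comparisons at 1W, 2W and 3W and r = 0.63, 0.04 and 0.41 in those of N-CE, where genes are not independent replicates. Over all probes above background r was lower, with 0.325, 0.603 and 0.048 for MXD and 0.436, -0.198 and 0.212 for N-CE. Genes with several probes above background had all of them on the same side of 0 for 19 of 31, 26 of 29 and 15 of 23 in the MXD comparisons at 1W, 2W and 3W and for 23 of 29, 21 of 29 and 18 of 23 in those of N-CE.

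Markers of cell types moved in the same comparisons. In MXD_2W, 11 of 11 hair shaft keratins on the array were called up with a median of 1.33, 8 of 8 melanocyte genes up with a median of 1.24 over those above background and 6 of 9 cycling cell genes up. There were 11 of 12 skeletal muscle genes called down with a median of -1.44, 7 of 8 suprabasal keratinocyte genes, 5 of 7 adipocyte, 4 of 7 fibroblast, 4 of 7 macrophage, 3 of 7 endothelial and 5 of 10 T and NK cell genes. Ivl of the suprabasal and Cd4 of the T cell list went up instead. Of the further lists, 5 of 6 inner root sheath genes, 3 of 4 wound keratins and 1 of 12 neutrophil genes were called up, 2 of 7 sebocyte, 2 of 7 Schwann cell and nerve and 1 of 7 basal keratinocyte genes down, 1 of 7 mast cell genes up and 2 down, and 0 of 6 B and plasma cell genes. The label of skin was borne out by the basal keratinocyte list, of which 7 of 7 genes were above background in both groups there. In N-CE_1W 10 of 11 hair shaft genes, 6 of 6 inner root sheath genes, 7 of 8 melanocyte genes and 6 of 9 cycling cell genes were called down. In MXD_3W, where B3galt5 was the member called, 7 of 8 melanocyte genes were called up and 0 of 11 hair shaft genes. The part of these markers in the glycosyltransferase values was not tested.

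The summed signal of the melanocyte markers was 35100 to 47700 in VC and 87700 to 102000 in MXD at 2W, and 19000 to 20700 in VC and 5850 to 6060 in N-CE at 1W. That of the skeletal muscle markers was 612000 to 754000 in VC and 193000 to 341000 in MXD at 2W. Tyr, which defines melanocytes, was not above background in either group in MXD_1W and N-CE_1W, nor was Myh7 in the muscle list in MXD_2W.

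Other parts of the glycan pathway were counted in MXD_2W by the brightest probe of each gene, beside 11.1% of all names called in either direction and 4.04% up and 5.82% down among all probes. Of 24 other Golgi transferases on the array 1 was called down, B3galnt1 with -0.86 ± 0.03, which is a globoside synthase, and 0 up. Of 26 genes that supply nucleotide sugars 0 were called up and 2 down, Ugp2 with -1.06 ± 0.24 and Uap1 with -0.66 ± 0.01, the enzymes that make UDP-glucose and UDP-N-acetylglucosamine. Of 27 genes of Golgi structure 0 were called in either direction, with a median of -0.05, and Tgoln1 had -0.57 ± 0.11. Of 16 lysosomal glycan-degrading enzymes Gla was called up with 0.99 ± 0.35 and 0 were called down. These lists had medians of -0.07, -0.06, -0.05 and -0.10.

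Some of the proteins that bind or carry the glycans were called down in MXD_2W, where 5.82% of all probes were, or 8.91% of those above background, and 0 of both lists were called up. Of 22 lectins and selectins 4 were called down, Cd209a with -1.63 ± 0.09, Clec7a with -1.36 ± 0.33, Mrc1 with -0.87 ± 0.03 and Lgals1, of which the first 3 are receptors of myeloid cells. The median of this list was -0.51. Of 15 mucins and sialomucins 4 were called down, Cd34 with -1.20 ± 0.08, Spn with -1.06 ± 0.06, Podxl with -0.79 ± 0.26 and Emcn, which are sialomucins of leukocytes and vessels, and the list had a median of -0.20. In MXD_1W the lectins Clec4d and Clec4e were among those called up and 0 of the list was called down.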

How the data were processed

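RNA of pooled back skin was measured on 12 two-colour Agilent arrays with 60-base probes. The authors read the scans with Agilent Feature Extraction, whose version is 12.0.3.1 per the file headers and 11.0.1.1 in the submitters' processing notes. The deposited log10 ratio is Cy5 over Cy3 after background subtraction and LOWESS dye normalization, and the deposited p-value per spot was computed by the error model of the authors' software. The deposited signal intensity of each channel is given raw and processed. Probe positions are on mm9, the build per the file headers.

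The log10 ratios were turned to log2 of treated over VC from the dyes in the labels, and control and outlier spots were left out. Spots of a probe were averaged, with the median of their P. The deposited matrix of log10 ratios served as an alternative. Calculations used Python 3.11.15, numpy 2.4.6, pandas 2.3.3, matplotlib 3.10.9 and R 4.3.3 with limma 3.58.1. Pool levels are log2 intensity after normexp with an offset of 50, loess and between-array scaling, all steps applied to the deposited intensity by limma. A probe above background in 1 group only was given by its levels after normexp. The lowest level of a spot well above background was to replace any lower level, which B3galt5 at 1W did not need. Calls and the limma fit were also run on simulated data, whose outcome is not given here and lends the results no support.

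Samples were grouped by the treatment and week in the labels. Named were the members called in a comparison (at most 30), the 2 highest and 2 lowest members above background in a comparison with fewer than 4 calls, and the member of each prefix with the widest range among those above background in both groups of all comparisons. A few others are named by their values, chosen after these were seen, namely Galnt18 in MXD_2W, a B4galt3 probe, the second St3gal3 probe and the lectins of MXD_1W. The members, the 6 pathway lists and the 18 marker lists were chosen with earlier results of these data known, so no count of them is independent support. Of the 76 names 75 matched a symbol of the RefSeq table.

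Alternatives covered the P criterion, symmetric folds, arithmetic means, normexp with loess, the matrix, outlier spots, dim probes, each array alone, 1 probe per name, the slide as a block and each week left out. The number of arrays limits the precision.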

Additional observations from a re-analysis of the deposited data

Results flagged for a closer look

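B3galt5 differed between the treatments at 1W and, for N-CE, between 1W and 3W. The log2 ratio over VC was above 0 on both arrays of MXD_1W and below 0 on both arrays of N-CE_1W, with means of 0.97 and -1.23 and a nominal difference of 2.2. It was also below 0 on both arrays of N-CE_1W and above 0 on both arrays of N-CE_3W, with means of -1.23 and 0.78 and a nominal difference of -2.01. The N-CE signal at 1W was not well above background on either array, so the sizes of -1.23 and of both differences are not measured. By levels after normexp, which compresses dim signals, N-CE at 1W was 1.23-fold below VC and MXD 1.64-fold above N-CE. Each value is from 1 pool, and these differences were not tested.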

How the results depend on the processing

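Counts of called members were the same or close (within 1.5 times) with symmetric folds, arithmetic means, outlier spots kept and the matrix values, in all 6 comparisons. With the fold alone they rose to 2 up and 17 down in MXD_1W, 21 and 36 in MXD_2W, 6 and 8 in MXD_3W, 8 and 10 in N-CE_1W, 4 and 12 in N-CE_2W and 6 and 11 in N-CE_3W. With normexp and loess, which compresses dim signals, the up count was 0 in MXD_1W, 6 in MXD_2W, 0 in N-CE_1W and 0 in N-CE_3W. The down count in N-CE_1W was then 1. Of all probes this setting called 0.396% up in MXD_1W and 2.51% up in MXD_2W. With probes above background on both arrays of both groups, N-CE_1W had 1 down. With the array that had the treated pool in Cy5 alone, there were 2 up and 5 down in MXD_1W and 2 up in N-CE_1W. There were 1 up and 3 down in N-CE_2W and 2 up and 5 down in N-CE_3W. Of all probes that array called 1.86% up and 1.75% down in MXD_1W. With the other array alone, there were 2 up in MXD_1W and 2 up and 1 down in MXD_3W. There were 4 up and 6 down in N-CE_1W, 5 up and 2 down in N-CE_2W and 4 down in N-CE_3W. Of all probes the other array called 1.63% up in MXD_1W and 0.428% up in MXD_3W. With the brightest probe of each name, MXD_1W had 1 down, beside 0.855% of all names, and N-CE_3W 0 down. Beyond what each setting changes by its construction, the cause was not tested.

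Of 40 called log2 folds of named members, 0 turned sign under normexp with loess. On either array alone no sign could turn, because a call requires both arrays to point the same way. The matrix holds ratios of the same processed signals, so it was no separate check. Under normexp 11 no longer passed, which were B3galt5 in MXD_1W, N-CE_1W and N-CE_3W, Mgat4a, St6gal1, Fut4, both Mgat5 probes and 1 Galnt6 probe in MXD_2W, and St6galnac5 and St8sia6 in N-CE_1W. The limma fit over 3 weeks had 0 members past the threshold under each alternative run, with each week left out and with the slide as a random block (consensus correlation 0.13, lowest adjusted p of a member 0.472 for MXD). Of all probes on the array 0 passed under these alternatives either. No paired analysis was possible because each group is 1 pool and all share the replicate number 1, but the limma difference of MXD and N-CE takes their values by week. Dim probes limit the values of B3galt5, B3gnt5, St3gal2, St3gal3 and Fut2, and 33 probes were not well above background on any array.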
